A study of Mus musculus with 8 samples.

Results

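The 8 genes followed tie proteins to the actin cytoskeleton, namely the PDZ-LIM genes Pdlim1, Pdlim2, Pdlim4, Pdlim5 and Pdlim7 and the Ena/VASP genes Enah, Evl and Vasp. They were read from every probe set whose platform gene symbol was one of these 8 names, which gave 21 of the 22690 probe sets of the array, and none of the 21 carried several symbols. Pdlim1 and Enah had been chosen by their lower signal in tumors than in parental cells, so their values in that contrast are given as a description without a test. The other 6 genes were taken as members of the same families, and the question was whether any of them was higher where Pdlim1 or Enah was lower.

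The tested material was splenic tumors of 3 nude mice, each measured on 2 arrays (tumor 1, tumor 2 and tumor 3), and it was set against the cells that had been injected into a vein of these mice, also measured on 2 arrays. Those parental cells were FL5.12, a mouse pro-B cell line that grows on interleukin-3, carrying stable Bfl-1DC and p53DD transgenes, which tumors and parental cells therefore share. The labels do not name the promoters of the transgenes or the ages of the mice, nor do they say whether the line was 1 clone. Nude mice lack most thymus-derived T cells and keep myeloid, B and natural killer cells, so a splenic tumor may hold cells of the host. A culture medium is listed even for tumor samples, and culture of tumor cells ahead of RNA isolation is neither stated nor denied. Separate cultures behind the parental duplicates are not stated either, so p-values measure a spread that may be technical.

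PDZ-LIM proteins carry a PDZ domain, which binds alpha-actinin on actin bundles, and LIM domains, zinc-binding modules that hold kinases and other partners. They thereby place signalling proteins on stress fibres and at cell edges. Ena/VASP proteins bind proline-rich ligands such as zyxin through their EVH1 domain, gather at the growing ends of actin filaments, take up actin bound to profilin and slow the capping of those ends. In blood cells the Ena/VASP family is known for platelet function and for the adhesion and migration of leukocytes.

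Promoter sequences of Pdlim1 and Enah are shown because these genes carry the large differences of the set. Both come from RefSeq (GRCm38.p6), span 250 bases before to 50 bases after the annotated start, and are written 5′ to 3′ along the gene with the letters GGGCGG or CCGCCC, a GC box on either strand, in capitals.
Pdlim1, chr19:40271567-40271866, minus strand: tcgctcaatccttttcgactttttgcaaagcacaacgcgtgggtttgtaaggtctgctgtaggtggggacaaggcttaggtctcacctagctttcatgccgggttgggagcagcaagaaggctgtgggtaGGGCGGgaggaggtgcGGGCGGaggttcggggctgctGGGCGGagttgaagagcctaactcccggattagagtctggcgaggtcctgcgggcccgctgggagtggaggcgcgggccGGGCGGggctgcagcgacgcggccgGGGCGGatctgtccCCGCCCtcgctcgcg
Enah, chr1:182019931-182020230, minus strand: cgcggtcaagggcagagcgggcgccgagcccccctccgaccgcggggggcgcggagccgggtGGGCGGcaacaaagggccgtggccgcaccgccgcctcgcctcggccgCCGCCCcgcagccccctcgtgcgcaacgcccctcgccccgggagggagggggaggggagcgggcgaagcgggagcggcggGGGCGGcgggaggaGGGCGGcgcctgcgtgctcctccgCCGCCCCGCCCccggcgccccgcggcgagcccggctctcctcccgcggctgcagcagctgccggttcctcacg
Each of these windows held 6 GC boxes, of which a pair overlapped by a base in Enah. The Pdlim1 window had 27 CpG dinucleotides and the Enah window 49, where the median of all 32851 windows was 7. A GC box occurred in 35.7% of all windows and in 6 of the 9 windows of 7 members, Pdlim2 having no entry in the table. The CArG box, the motif bound by serum response factor, occurred in 0 of the 9 member windows and in 1.63% of all windows. These counts describe letters in the windows and say nothing of which factors bind there.

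The arrays were Affymetrix Mouse Genome 430A 2.0, and the deposited values are linear signals per probe set scaled alike on every array. Their median signal lay between 32.5 and 37.9, and the 40th percentile, used as the limit below which a signal counts as low, between 15.6 and 20.7. Comparisons were made on log2(signal + 16), a scale on which fold changes of weak genes come out too small, for 8535 genes with limma, taking the mean of its 2 arrays as the value of a tumor. In that test 65 genes (0.762%) were called at an adjusted p under 0.05, 50 of them higher in tumors (0.586%) and 15 lower (0.176%). Of the labelled pro-B identity, Cd79b and Cd79a, the signalling chains of the B cell receptor, were above the limit on all 8 arrays. Cd79b was among the genes called higher in tumors (log2 difference 1.31, limma adjusted p = 0.0421), and Cd79a was at 0.97 (0.145). Vpreb1, Ebf1, Rag1, Rag2, Blnk and Dntt were below the limit on all 8 arrays, as was Pax5 on all but 1. Igll1 exceeded it on 3 tumor arrays only. Probe sets of Pdlim4, Evl, 1 probe set of Pdlim1 and 1 of Enah did not pass the filter on low values, so 16 of the 21 probe sets and 6 of the 8 genes could be followed further.

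Pdlim1, also called CLP36, is an adaptor that binds alpha-actinin. Its main probe set had signals of 8.15 and 32.8 (tumor 1), 19.2 and 7.46 (tumor 2) and 17.9 and 31.1 (tumor 3), against 257 and 317 in parental cells. All 6 tumor arrays lay far below both parental arrays, and 17.6% of all kept probe sets had no overlap of arrays in either direction. Of the tumor arrays 3 exceeded the 40th percentile of their own array, as did 2 of 2 parental arrays. The mean was 19.4 ± 5.66 in tumors (SD, n = 3) and 287 ± 42.8 in parental cells (SD, n = 2 arrays), and the ratio of these means was 0.0677. On the log2 scale the difference from parental cells was -3.14 in tumor 1, -3.39 in tumor 2 and -2.92 in tumor 3.

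The 2 other Pdlim1 probe sets had low signal throughout. The second probe set read 1.27 to 14.3 on the tumor arrays and 24.6 and 27.2 on the parental arrays, without overlap. The third stayed below the limit on all arrays, at 3.81 to 13.3 in tumors and 10.4 and 1.16 in parental cells. The large difference in Pdlim1 therefore rests on 1 probe set. The second passed the filter through the parental arrays alone, so its lower signal in tumors adds nothing. When each tumor or parental array was left out, the difference of Pdlim1 ran from -3.29 to -3.004. This range is a description only, since Pdlim1 was chosen for its lower signal in the tumors.

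With 3 of the 6 tumor arrays at or below the limit, no order of the tumors can be given for Pdlim1.

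**Figure D1:**
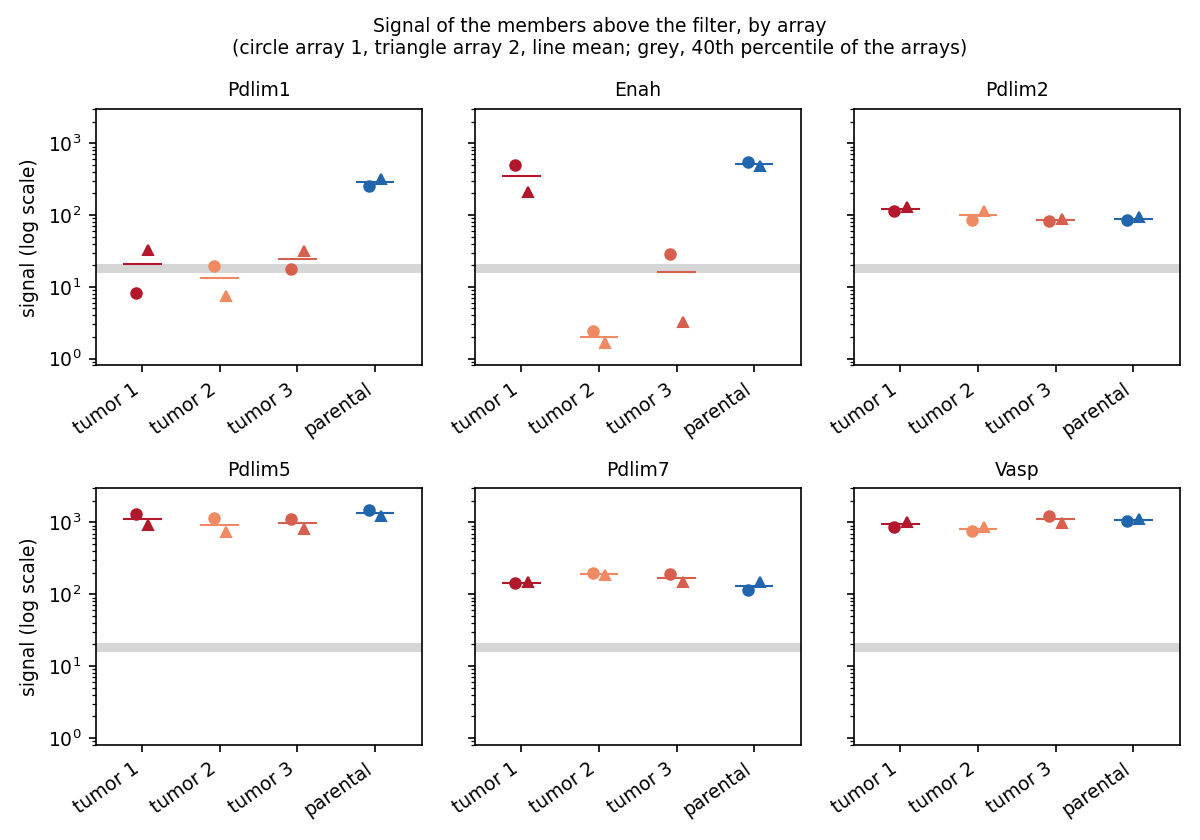
Signal (log scale) of the main probe set of the 6 genes that passed the filter, for tumors 1 to 3 and parental cells, with circles for array 1, triangles for array 2, lines for the mean of a source and a grey band for the 40th percentile of the arrays (15.6 to 20.7). Pdlim1 is low in all tumors, Enah in tumors 2 and 3, and the 4 other genes stay within a narrow range in tumors and parental cells.

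Enah, also called Mena, is the Ena/VASP protein best known from neurons and motile cells. Its main probe set had signals of 490 and 208 (tumor 1), 2.41 and 1.63 (tumor 2) and 28.6 and 3.22 (tumor 3), against 542 and 488 in parental cells. The first array of tumor 1 thus lay between the parental arrays, its second array lay below them, and all arrays of tumors 2 and 3 were far lower. The source means were 349, 2.02 and 15.9 in tumors 1, 2 and 3 and 515 in parental cells.

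Enah was chosen for this pattern, so its other probe sets with signal are given as a description. On the second probe set, drawn from the same sequence record as the main one, the signals were 186 and 127 (tumor 1), 11.6 and 24.2 (tumor 2) and 16.6 and 9.22 (tumor 3), against 205 and 252 in parental cells. The third and weaker probe set read 25.9 and 20.9 (tumor 1), 1.88 and 6.81 (tumor 2) and 1.38 and 2.67 (tumor 3), against 19.3 and 26.0 in parental cells. The third probe set passed the filter through arrays of tumor 1 and parental cells only, so its low signal in tumors 2 and 3 adds nothing. The fourth was below the limit on all 8 arrays.

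On the log2 scale the main probe set of Enah differed from parental cells by -0.66 in tumor 1, -4.88 in tumor 2 and -4.18 in tumor 3. The mean over the 3 tumors was -3.24, and it was -4.53 without tumor 1. Since Enah was chosen for being lower in some tumors, no test was made of its differences between tumors. The tumors are bulk samples, in which fewer cells that express a gene and less RNA per cell cannot be told apart.

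**Figure D2:**
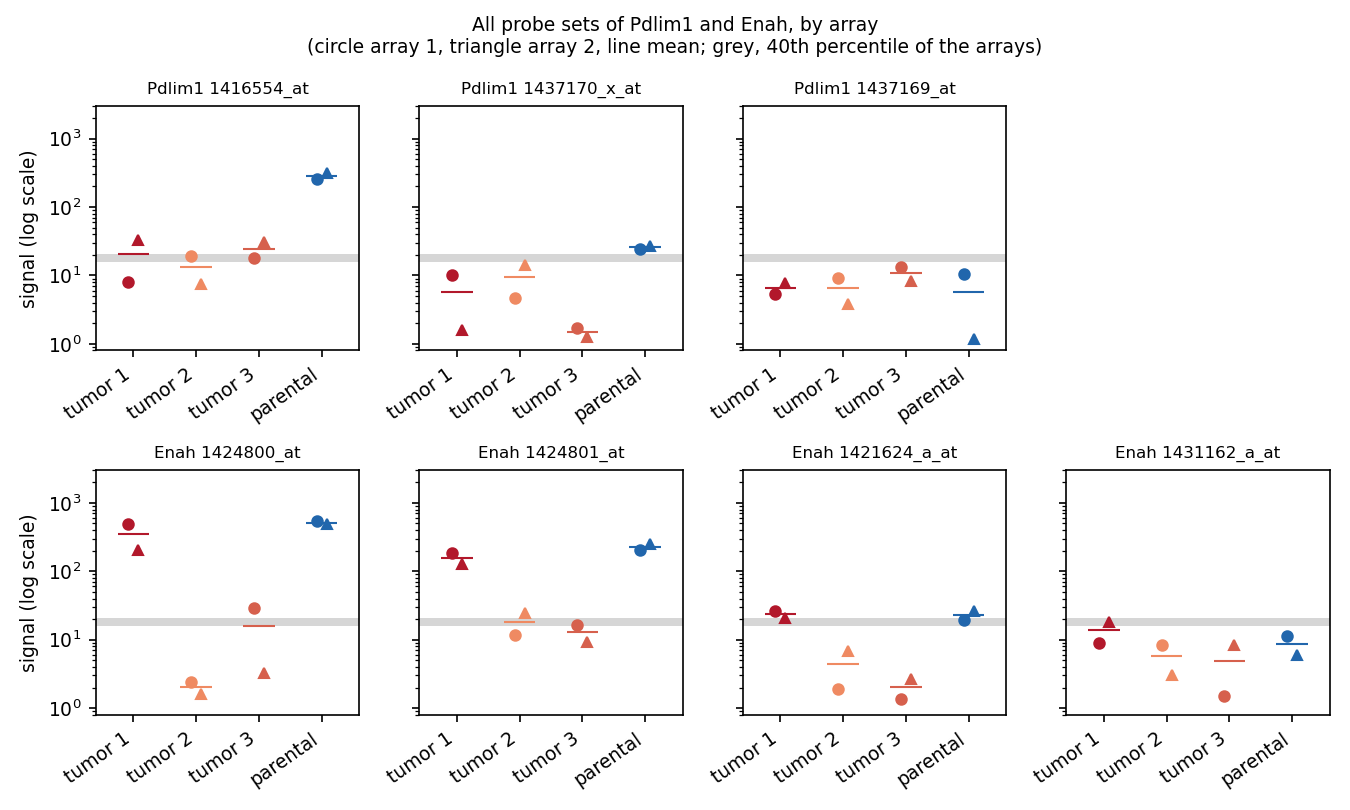
Signal (log scale) of the 3 Pdlim1 and 4 Enah probe sets by array, with circles for array 1, triangles for array 2, lines for source means and a grey band for the 40th percentile of the arrays. The strong Pdlim1 probe set is low in every tumor, and 3 Enah probe sets keep signal in tumor 1 and are low in tumors 2 and 3. The weakest of these 3 passed the filter through tumor 1 and parental cells only.

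None of the relatives that could be tested was called higher or lower in tumors. Of Pdlim2, Pdlim5, Pdlim7 and Vasp, 0 of 4 were called (limma, adjusted p of 0.266 to 0.722, beside 0.762% of all genes called), and 1 of 4, Pdlim5, had an unadjusted p under 0.05, as did 16.4% of all genes. Pdlim7 and Pdlim2 had differences above 0 and Pdlim5 and Vasp below 0. The 95% intervals reach up to 0.80 for Pdlim7, 0.59 for Pdlim2 and 0.25 for Vasp on the log2 scale, so rises of those sizes are not excluded.

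Pdlim5, or ENH, is an Enigma-type protein with several LIM domains that binds protein kinase C isoforms. Its main probe set read 1313 and 925 (tumor 1), 1140 and 731 (tumor 2) and 1135 and 804 (tumor 3), against 1504 and 1240 in parental cells. Only the first array of tumor 1 reached into the parental range. The mean was 1008 ± 97.7 in tumors (SD, n = 3) and 1372 ± 187 in parental cells (SD, n = 2 arrays), a log2 difference of -0.46 with a 95% interval of -0.88 to -0.04 and an adjusted p of 0.266 by limma.

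The Pdlim5 signal moved with the array number. On each of its 7 probe sets the second array was lower than the first in tumors 1, 2 and 3 and in parental cells, which held for all 28 pairs, and such a uniform drop was found for 23.1% of the 14893 probe sets that passed the filter. A comparison within array number was therefore added after the values were seen. In it all 3 tumors lay below the parental array of the same number, in both numbers, on 7 of 7 Pdlim5 probe sets, a pattern that 15.7% of all kept probe sets showed. At least 4 of the 7 probe sets share a sequence record, so they are not independent. Their log2 differences ranged from -0.67 to -0.22, and 0 of 7 were called over all probe sets (limma, adjusted p of 0.239 to 0.646), beside 0.698% of all kept probe sets.

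**Figure D3:**
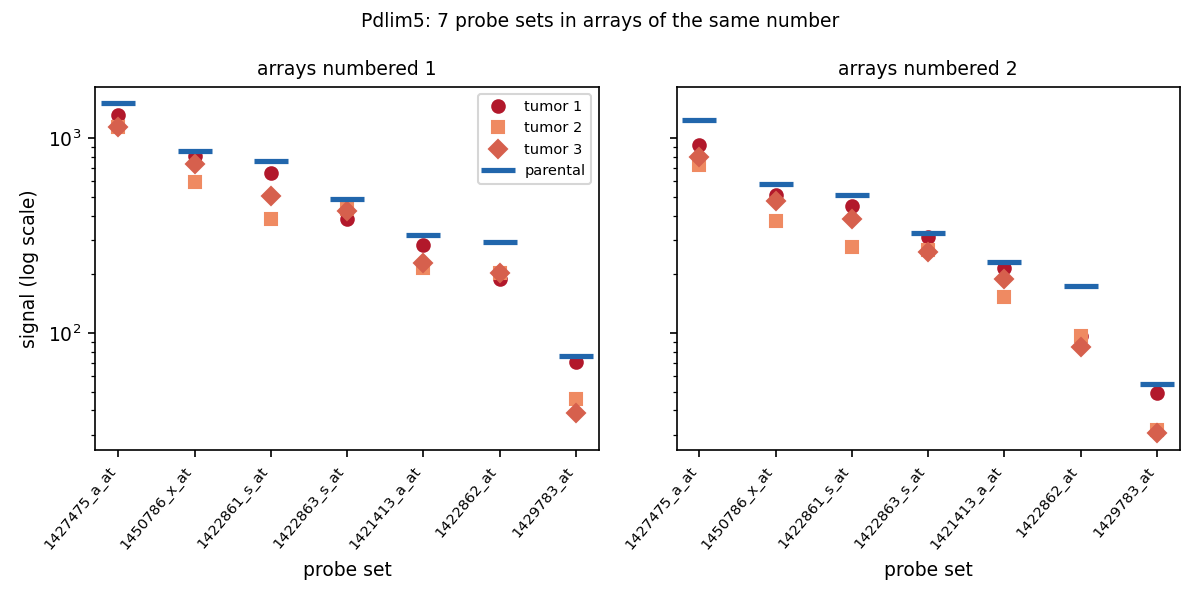
Signal (log scale) of the 7 Pdlim5 probe sets on arrays numbered 1 (left) and 2 (right), with symbols for tumors 1 to 3 and a bar for the parental array of the same number. Every tumor symbol lies below its parental bar on all 7 probe sets in both panels.

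Pdlim7, or Enigma, carries several LIM domains that bind receptor tyrosine kinases and protein kinase C. Its main probe set read 141 and 148 (tumor 1), 199 and 188 (tumor 2) and 194 and 149 (tumor 3), against 114 and 148 in parental cells. Both arrays of tumor 2 exceeded both parental arrays, the second array of tumor 3 did so only barely, and tumor 1 reached into the parental range. Within array number, all 3 tumors lay above the parental array of the same number, in both numbers, on this probe set. Tumors 1 and 3 did so only barely in number 2. That pattern held for 16.3% of all kept probe sets and for 1 of the 2 Pdlim7 probe sets. The probe sets of Pdlim2 and Vasp lay neither all above nor all below in this comparison. The mean was 170 ± 24.4 in tumors (SD, n = 3) and 131 ± 24.7 in parental cells (SD, n = 2 arrays), a log2 difference of 0.34 with a 95% interval of -0.13 to 0.80 and an adjusted p of 0.437 by limma. The second probe set read 75.6 to 95.3 on the tumor arrays and 91.8 and 69.6 on the parental arrays, with a log2 difference of 0.09 (limma over all probe sets, adjusted p = 0.839), so the probe sets of Pdlim7 gave unequal sizes.

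Pdlim2, also called Mystique or SLIM, is a PDZ-LIM protein found in the nucleus and cytoskeleton and known as a ubiquitin ligase for STAT4 and for the p65 subunit of NF-kB. Its single probe set read 114 and 131 (tumor 1), 84.6 and 114 (tumor 2) and 82.2 and 88.8 (tumor 3), against 86.3 and 92.3 in parental cells. Tumor 1 lay above parental cells on both arrays and tumors 2 and 3 overlapped them. The log2 difference was 0.15 with a 95% interval of -0.29 to 0.59 and an adjusted p of 0.722 by limma, and it shrank to 0.05 with every array centred at its own median, which moved the median of all genes by -0.11. Pdlim4, or RIL, was at 0.555 to 2.80 on the tumor arrays and at 1.37 and 1.16 on the parental arrays, far below the limit on all 8, and was not tested.

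Vasp is the founding member of the Ena/VASP proteins and a substrate of the cyclic nucleotide kinases PKA and PKG. Its probe set read 856 and 1020 (tumor 1), 758 and 863 (tumor 2) and 1242 and 993 (tumor 3), against 1034 and 1135 in parental cells. Tumor 3 straddled the parental arrays, whereas all arrays of tumors 1 and 2 lay below both. The mean was 955 ± 154 in tumors (SD, n = 3) and 1085 ± 71.5 in parental cells (SD, n = 2 arrays), a log2 difference of -0.20 with a 95% interval of -0.64 to 0.25 and an adjusted p of 0.640 by limma. Evl, an Ena/VASP protein described in lymphocytes, had low signal on both of its probe sets. They read 0.257 to 11.8 on the tumor arrays and 0.896 to 8.96 on the parental arrays, below the limit on all 8, and Evl was not tested.

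**Figure D4:**
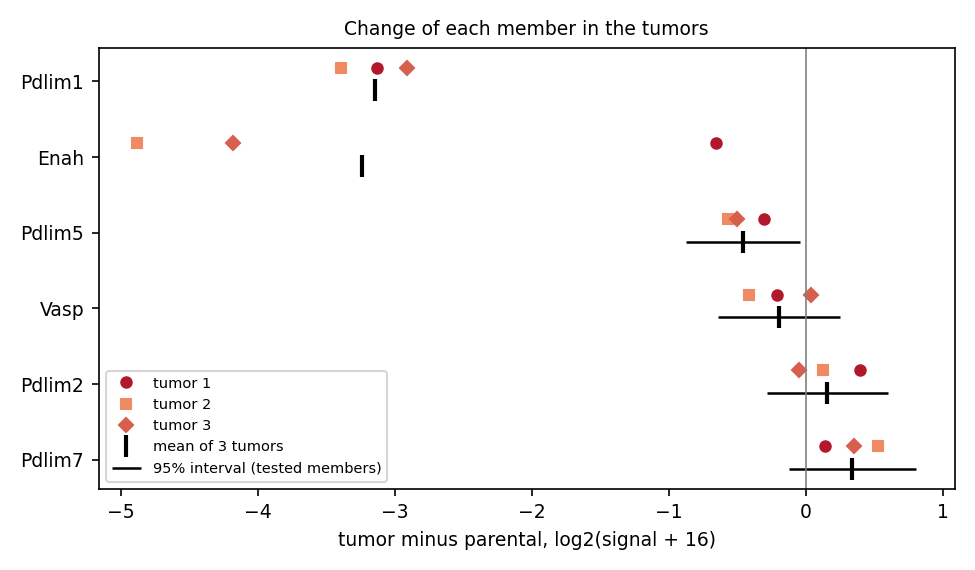
Difference of each tumor from parental cells (coloured symbols) and the mean over 3 tumors (black tick) on the scale of log2(signal + 16), with a 95% interval from limma for the 4 tested genes. Pdlim1 lies between -3.39 and -2.92 in the tumors, Enah at -0.66 in tumor 1, -4.88 in tumor 2 and -4.18 in tumor 3, and the intervals of Pdlim2, Pdlim7 and Vasp include 0.

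Tumor by tumor, in the fit of all 8 arrays whose contrasts share the parental arrays, 0 of the 4 tested genes were called in any tumor (limma, adjusted p under 0.05), beside 3.71%, 1.55% and 2.52% of all genes in tumors 1, 2 and 3. The lowest adjusted p was 0.316, for Pdlim2 in tumor 1, with a log2 difference of 0.39 and a 95% interval of -0.06 to 0.85. Of these 12 comparisons only Pdlim7 in tumor 2 had a 95% interval without 0, at a log2 difference of 0.52 with an interval of 0.047 to 0.998 and an adjusted p of 0.321. With the array number as a block, 0 were called as well, and 5 of the 12 intervals left out 0. These were Pdlim5 in tumor 2 (-0.92 to -0.23, adjusted p = 0.0685) and in tumor 3 (-0.85 to -0.16, 0.0753), Pdlim2 in tumor 1 (0.053 to 0.73, 0.111), Pdlim7 in tumor 2 (0.086 to 0.96, 0.146) and Vasp in tumor 2 (-0.83 to -0.00035, 0.209). Shares of all genes with such an interval were not counted in either fit, nor shares called with the block. The counts of intervals therefore carry no weight. Without the block, Vasp differed from parental cells by -0.41 in tumor 2 (limma adjusted p = 0.422) and by 0.04 in tumor 3 (0.956).

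Between tumors, none of the relatives was called either. The F test over the 3 tumors gave adjusted p of 0.598 for Pdlim2, 0.926 for Pdlim5, 0.715 for Pdlim7 and 0.613 for Vasp, beside 1.63% of all genes called. Vasp in tumor 1, which kept Enah, minus tumor 2 was 0.20 with a 95% interval of -0.26 to 0.67, and minus tumor 3 was -0.25 with an interval of -0.71 to 0.22. Both intervals include 0, and the differences have opposite signs.

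The wider actin machinery was read from 7 lists of 144 genes, of which 95 were measured. In the comparison of tumors with parental cells 0 of the 95 were called by limma, beside 0.762% of all genes. At an unadjusted p under 0.05, 11 were higher and 6 lower, beside 9.76% and 6.63% of all genes, so neither count stands far from the background. The median log2 difference of the 95 was 0.10, beside 0.02 for all 8535 genes, and 59 of them lay above 0, as did 52.9% of all genes. Medians ranged from -0.04 for PDZ-LIM partners to 0.19 for the list of serum response factor, its MRTF cofactors and their targets. The medians were not stable: that of the last list was 0.069 without parental replicate 1 and 0.354 without parental replicate 2, and those of 4 lists changed sign under an alternative. In the serum response factor list, which also holds the genes Srf, Mrtfa and Mrtfb themselves, 11 of 12 genes lay above 0. Of the 12, 0 had an unadjusted p under 0.05 by limma. Among the 11 were Tagln2, a calponin-like actin binder, at 0.37 (limma adjusted p = 0.353), and Actg2, a smooth muscle actin, at 0.64. Actg2, Mrtfb and Egr1 were below the limit on both parental arrays. They passed the filter through tumor arrays alone, so their place above 0 adds nothing.

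Among partners of PDZ-LIM proteins the widest difference was that of Stat4, the transcription factor that Pdlim2 is known to target. Stat4 read 8.90 and 12.9 (tumor 1), 30.7 and 9.56 (tumor 2) and 54.6 and 50.6 (tumor 3), against 104 and 253 in parental cells. No tumor array reached a parental array, yet the log2 difference of -2.17 did not pass over all genes (95% interval -3.32 to -1.02, limma adjusted p = 0.11). The kinase gene Stk35, whose product binds Pdlim1, was at -0.45 (adjusted p = 0.282). Of the alpha-actinins that anchor PDZ-LIM proteins, Actn1 was at -0.35 (95% interval -0.71 to 0.0049, adjusted p = 0.309) and Actn4 was at 0.01 (-0.35 to 0.37, 0.98). Of this list 8 of 16 measured genes lay above 0 and 8 below.

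Ligands of Ena/VASP proteins included the smallest adjusted p of all lists. Lpp, a zyxin relative at focal adhesions, read 66.3 and 77.7 (tumor 1), 71.1 and 82.5 (tumor 2) and 77.9 and 87.3 (tumor 3), against 31.1 and 41.1 in parental cells. All tumor arrays exceeded both parental arrays, at a log2 difference of 0.84 with a 95% interval of 0.44 to 1.24, but the adjusted p of 0.0915 by limma was above the threshold. Apbb1ip, or RIAM, which links Rap1 and talin to Ena/VASP proteins in leukocytes, read 57.0 to 92.1 on the tumor arrays and 42.9 and 27.0 on the parental arrays (log2 difference 0.77, adjusted p = 0.125). Zyx, or zyxin, was at 0.02 (95% interval -0.41 to 0.45) and the actin monomer carrier Pfn1 at 0.03 (-0.42 to 0.49). In the list 10 of 16 measured genes lay above 0.

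The remaining lists likewise held no called gene. In the other PDZ-LIM and LIM adaptors, 4 of 8 measured genes lay above 0. Lima1 was at 0.63 and the leukocyte paxillin relative Lpxn at -0.91 (limma adjusted p = 0.219). Lima1 read 2.84 and 7.23 in parental cells and passed the filter through the arrays of tumor 1 alone, so its difference adds nothing. The closest relatives of the members, Pdlim3 and Ldb3, did not pass the filter. Of the Arp2/3, WASP and WAVE genes, which nucleate branched actin, 11 of 16 lay above 0, with the Arp2/3 subunits Actr3 at 0.59 (0.202) and Arpc4 at 0.40 (0.266). Formins, which elongate unbranched filaments, had 2 of 4 above 0, with Diaph1 at -0.35 (0.424) and Diaph3 at 0.61 (0.545). Of genes for capping, severing and bundling 13 of 23 lay above 0, with the capping and monomer-binding twinfilin gene Twf2 at 0.75 (0.126) and Lcp1, the leukocyte bundler L-plastin, at 1.12 (0.145). The control gene Actb was at 0.17 (0.679).

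**Figure D5:**
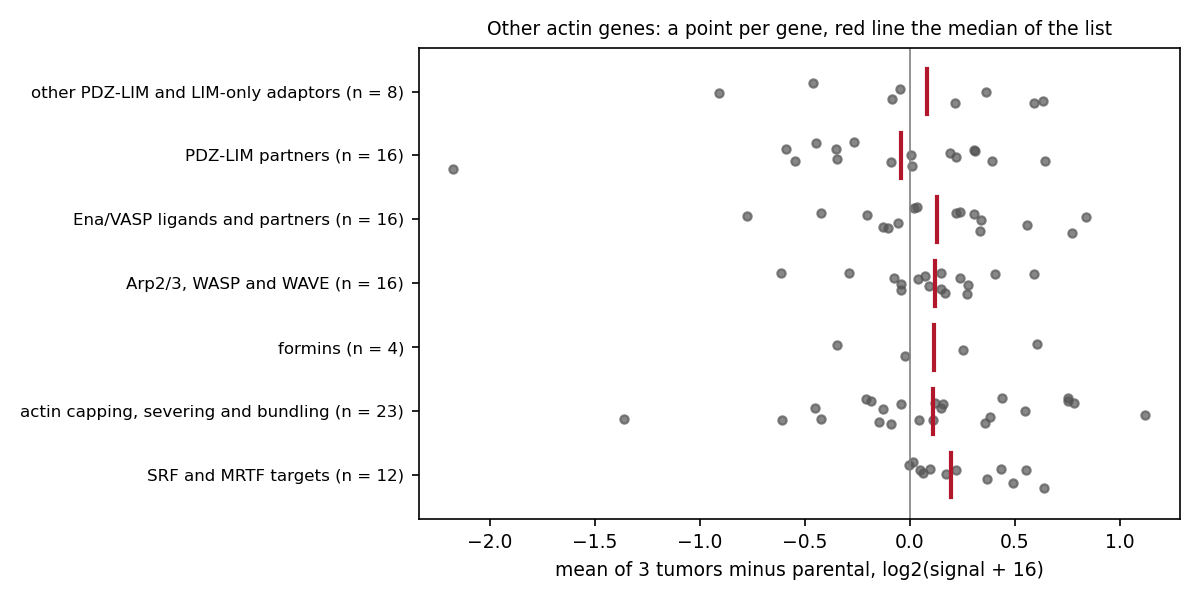
Mean of the 3 tumors minus parental cells on the scale of log2(signal + 16) for the 95 measured genes of the 7 actin lists, with a point per gene and a red line at the median of each list. The medians lie between -0.04 and 0.19, and the lowest point is Stat4 at -2.17.

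The genes most like Pdlim1 and Enah in their pattern were sought among 1119 genes whose SD over the 8 arrays was at least 0.5, by Pearson correlation over the arrays, which share 4 sources and their array numbers. For Pdlim1 these were Mterf2 (0.979), Erlin1 (0.95), Klf9 (0.93), Tnfrsf13b (0.929) and Mc1r (0.927). Each had a lower mean signal in every tumor than in parental cells, which the ranking by a gene chosen for that pattern itself favours. The mean signals of Mterf2, Klf9 and Mc1r lay below the limit in all tumors. Tnfrsf13b, the receptor TACI of B cells, for example had mean signals of 69.4, 65.8 and 103 in tumors 1, 2 and 3 and 232 in parental cells. For Enah they were Cds2 (0.874), Ighm (0.851), Itih5 (0.827), Pik3cd (0.813) and 2310039H08Rik (0.811), each higher in tumor 1 than in tumors 2 and 3, which the ranking itself favours. Unlike Enah, Cds2 had a higher mean signal in tumor 1 than in parental cells (170 and 116), as did 2310039H08Rik (457 and 279). Pik3cd had 276 in both, and Itih5 had 45.7 in tumor 1 and 54.7 in parental cells. Ighm, the immunoglobulin mu heavy chain gene, had 373, 111 and 80.3 in tumors 1, 2 and 3 and 423 in parental cells.

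Pdlim1 lies on chromosome 19, where the 325 other genes tested had a median log2 difference of -0.35, lower than on the chromosomes of Pdlim2, Pdlim5, Pdlim7, Enah and Vasp, where it was -0.02 to 0.05. Medians of chromosomes without a tested member were not computed. Among the 5 genes most like Pdlim1, Erlin1 and Klf9 lie on chromosome 19 as well, which holds 325 others of the 8535 genes tested. Those 5 were ranked by likeness to a gene chosen for its low signal in tumors, so their place carries no weight. The 10 genes tested nearest to Pdlim1, 5 on each side, had differences of -0.62 to 0.48, and 7 of them lay below 0. The lowest unadjusted p among the 10 by limma was 0.0555, for Cyp2c29, which lay above 0. Those nearest to Enah, on chromosome 1, ranged from -0.21 to 0.59. The differences of Pdlim1 and Enah lay outside the range of their neighbours, but both genes had been chosen for large differences, so this carries no weight. The part of the chromosome in their differences was not tested.

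Markers of other cell types also differed between tumors and parental cells. The summed signal of 12 neutrophil markers was 4174 to 10554 on the tumor arrays and 316 to 829 on the parental arrays, and that of 6 eosinophil markers 3642 to 8221 in tumors and 38.1 to 44.1 in parental cells. Of the neutrophil markers Camp was below the limit on all tumor arrays, as were Ccr3 and Il5ra of the eosinophil markers. The sum of 14 macrophage and monocyte markers was 820 to 3252 in tumors and 197 to 911 in parental cells. Among these 14, C1qa, C1qb, C1qc and Marco were below the limit on all tumor arrays. Of the 9 that passed the filter 8 lay above 0, and Csf1r was at -0.65 (limma adjusted p = 0.817). Among these 8, Cd14, Ccr2, Itgam, Fcgr1 and Vcam1 were below the limit on both parental arrays and passed through tumor arrays alone. The sum of 8 T cell markers was 873 to 2601 in tumors and 70.3 to 83.4 in parental cells. Of the 8 T cell markers, 2 passed the filter, Cd3g at a log2 difference of 4.46 (limma adjusted p = 0.000891) and Cd3d at 4.21. Cd3d was below the limit on both parental arrays and passed through tumor arrays alone, so its difference adds nothing. Cd3e, Cd247, Cd4 and Cd8b1 were below the limit on all tumor arrays. The sums of 11 pro-B markers were 454 to 637 in tumors and 239 to 241 in parental cells. Those of 9 platelet markers were 640 to 1043 in tumors and 637 to 751 in parental cells. Those of 15 stromal markers were 217 to 495 in tumors and 205 to 267 in parental cells. Of these 15, 9 were below the limit on all 8 arrays, among them Col1a1, Col3a1, Dcn and Myh11. The sums for 12 endothelial markers were 494 to 748 in tumors and 454 to 537 in parental cells, and those for 9 erythroid markers 412 to 1408 in tumors and 1101 to 1747 in parental cells. The part of such cells in the values of Pdlim1, Enah and their relatives was not tested.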

How the data were processed

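The authors deposited 1 signal intensity per probe set on a linear scale. The submitters' processing notes name MAS5 without version or settings. Trimming 2% from either end gave a mean of 150.06, which shows a common scaling by the authors that fixes the total and so makes levels relative. Detection calls were not used here, and the number of arrays limits the precision.

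Gene names came from GEO's platform table with symbols renewed through RefSeq (GRCm38.p6): 20380 had 1 symbol and 691 several, and 64 control probe sets were left out. Kept probe sets passed the 40th percentile of an array on 2 or more arrays, and the kept probe set of highest mean stood for a gene. Values of log2(signal + 16) were compared with limma 3.58.1 in R 4.3.3, two-sided, with Benjamini-Hochberg adjustment over all genes at 0.05 and 95% intervals without adjustment. The main fit set 3 tumors, each the mean of 2 arrays, against 2 parental arrays. A fit of all 8 arrays (4 residual degrees of freedom) served for single tumors and for differences between tumors. Named genes were all members, from each list those called or else the 2 of lowest p, the 5 genes most like Pdlim1 and Enah, Actb, and a few partners (Actn1, Actn4, Zyx, Pfn1) named after their values were seen. The members, lists and tests were chosen with earlier results of these data known. The scripts were tested on simulated data.

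The labels number the arrays of each source 1 and 2. Differences between array 2 and array 1 correlated across genes at 0.401 to 0.596 in all 6 pairings of the sources, the numbers therefore pair arrays, and a fit with the number as a block was run. Also tried were a pseudocount of 1 or 64, dropping the filter or raising it to the 60th percentile, median centring, quantile normalization, averaging all probe sets of a gene, a trended robust prior, 1 array number at a time, and leaving out each tumor or parental array.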

Additional observations from a re-analysis of the deposited data

How the results depend on the processing

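Pdlim2, Pdlim5, Pdlim7 and Vasp kept the sign of their difference between tumors and parental cells and were not called under any of the 16 alternatives (limma, adjusted p of 0.67 to 0.961, 0.183 to 0.709, 0.331 to 0.903 and 0.44 to 0.929). With the replicate number as a block their limma adjusted p were 0.68, 0.225, 0.351 and 0.594. The block changed no call of a member or an actin list. Each tumor is the mean of both numbers, so in this fit the block takes up only the difference between the parental arrays. The spread is then that of the tumors alone. Over all genes the block left 19 higher and 9 lower genes, against 50 and 15 without it. Called genes numbered 23 higher with a pseudocount of 64, 21 higher and 5 lower with no filter, 48 higher and 28 lower with median centring, and 9 lower with the mean of probe sets. Arrays of number 1 alone gave 5 higher and 0 lower (305 lower at an unadjusted p under 0.05), and arrays of number 2 alone 10 and 2, where the spread of the single parental array had to be taken from the tumors. Leaving out 1 tumor or parental array gave 9 to 64 higher and 3 to 11 lower, with 9 and 3 without parental replicate 2, 10 and 6 without parental replicate 1, and 7 and 8 lower without tumor 1 and tumor 2. Pdlim1 was at -4.01 and -2.08 with pseudocounts of 1 and 64 and at -2.07 with the mean of its probe sets. Small differences changed sign for the second Pdlim7 probe set (-0.017 with median centring, and -0.075 to 0.26 without either parental array, negative without parental replicate 2), for a Pdlim5 probe set (-0.50 to 0.057 likewise, positive without parental replicate 1) and for Vasp in tumor 3 (-0.094 with median centring). Over the alternatives the list medians ran from -0.15 to 0.060 for PDZ-LIM partners, -0.037 to 0.27 for formins and -0.098 to 0.20 for capping, severing and bundling. They ran from -0.065 to 0.21 for LIM adaptors and 0.069 to 0.35 for the serum response factor list. For Arp2/3 they were 0.013 to 0.18 and for Ena/VASP ligands 0.020 to 0.22. The cause was not tested. Low signal limits Pdlim4 and Evl, for which a difference could not be detected.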
